A study of Mus musculus with 6 samples.

Results

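The genes described here encode the subunits of the constitutive proteasome, its regulators and the chaperones that assemble it. They were chosen by name: every probe set with 1 annotated gene symbol that starts Psma, Psmb, Psmc, Psmd, Psme, Psmf or Psmg followed by a number, leaving out the interferon-inducible Psmb8, Psmb9 and Psmb10. The rule found 99 of 45101 probe sets, for 46 of 18193 measured genes. Of the 46, 44 are proteasome genes. The other 2, Psmc3ip (a meiotic recombination factor) and Psme3ip1 (a partner of the activator PSME3), are caught by the start of their names and encode neither a subunit nor an assembly chaperone. The probe set of Psme2 carries 2 symbols and was therefore no member.

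RNA came from 344SQ cells, a murine lung cancer line. PIK3CA shRNA cells (3 arrays) received a vector expressing a short hairpin RNA (shRNA) against mouse Pik3ca, the gene of the p110-alpha catalytic subunit of phosphoinositide 3-kinase. Control shRNA cells (3 arrays) carried a control hairpin, and both groups were grown in RPMI medium with serum. 344SQ is known as a metastatic line from a mouse lung adenocarcinoma, an origin both groups share. Per the labels, the vectors were introduced by lipid transfection. Whether the cells were pools or single clones, and how many hairpins were used, the labels do not state. The comparison asks how transcript levels change with knockdown of Pik3ca. Each value is a linear Affymetrix intensity, and each difference is the PIK3CA shRNA mean minus the control shRNA mean of log2(intensity + 16), a scale that shrinks the change of a dim gene. Each gene is represented by its brightest probe set unless another is named. The labels do not say whether the replicates were grown apart; the p-values therefore reflect the spread among these 6 samples alone, and that spread may be technical. Their number limits the precision.

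The proteasome degrades proteins that have been tagged with ubiquitin. Its barrel-shaped core, the 20S particle, has outer rings of alpha subunits, which form the gate, and inner rings of beta subunits, 3 of which (PSMB5, PSMB6 and PSMB7) cut peptide bonds. The 19S cap recognises ubiquitin chains, removes them, and unfolds the substrate with a ring of ATPases. Dedicated chaperones build the core and the cap, and other caps (PA28 and PA200) can open the core in place of 19S. In mammalian cells many of these genes are induced together by the transcription factor NFE2L1 when proteasome activity is limiting.

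Pik3ca read 1249, 1237 and 1220 in the PIK3CA shRNA arrays and 2450, 2324 and 2364 in the control shRNA arrays, a log2 difference of -0.94 (standard error 0.05, limma adjusted p = 0.000762). Of its 6 probe sets, 5 were past the threshold over all probe sets, and all 5 were lower. The array medians lay between 134.1 and 134.7. The keratin genes Krt8 (mean intensity 12469 in PIK3CA shRNA and 11903 in control shRNA cells) and Krt18 and the E-cadherin gene Cdh1 were among the bright epithelial markers. Of the 12 lung epithelial markers, 7 were above the median brightness (intensity 245.8). The surfactant gene Sftpb was among these 7, at 1389 in PIK3CA shRNA and 1223 in control shRNA cells. The surfactant gene Sftpc and the lung factor gene Nkx2-1 were dimmer than the median gene. Of 12 lung epithelial markers, 0 passed the limma threshold and 2 had an unadjusted p under 0.05. Leukocyte markers had 1 of 9 higher, Cd14, and the list summed to 2412 to 2897 in PIK3CA shRNA and 1850 to 2112 in control shRNA arrays. Cd14 made up most of that sum, averaging 1712 in PIK3CA shRNA and 1082 in control shRNA cells. Of the 9 markers, 4 were above zero and 5 below it. The leukocyte-defining Ptprc averaged 58.6 in PIK3CA shRNA and 63.2 in control shRNA cells, below the median gene. Fibroblast markers (1 of 8 lower, Dcn) summed to 515 to 793 in PIK3CA shRNA and 718 to 742 in control shRNA arrays. The endothelial markers, with 0 of 7 past the limma threshold and 2 at an unadjusted p under 0.05, summed to 614 to 744 in PIK3CA shRNA and 583 to 647 in control shRNA arrays. Their part in the results below was not tested. In a bulk sample, fewer cells of a kind and less RNA per cell cannot be told apart.

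Most proteasome genes differed little between the groups. Of the 46, 2 rose (Psme1 and Psma7), 3 fell (Psmc2, Psmd7 and Psmg3) and 41 did not pass the limma test at an adjusted p of 0.05 over all genes. That is 10.9% of the members. Over all genes 11.5% passed, 5.88% higher and 5.62% lower, so the members' share lies near that background. Of the 46 members, 44 were above the median brightness of all genes, and among all genes above it 17.6% passed, a larger share than among the members; that difference in shares was not tested. The log2 difference was within 0.1 of zero in 22 members (47.8%, against 32.3% of all genes and 34.8% of genes above the median brightness). Its median absolute size was 0.12 over the members, 0.15 over genes above the median brightness and 0.17 over all genes. Arrays of a group also lay close together for these bright genes. The median residual standard deviation was 0.053 on the log2 scale over the members, against 0.087 over genes above the median brightness. The count of called members depended on the variance model and on the genes kept. With an intensity trend and robust prior 11 members passed (23.9%, against 17.5% of all genes). With dim genes left out 9 of 44 did (20.5%, against 27.3% of all genes kept). Leaving out any 1 of the 6 arrays left between 1 and 2 members past the threshold (2.17% to 4.35%, against 5.19% to 6.26% of all genes). Psme1 was called each time, Psma7 in 3 of the 6 fits, and Psmc2, Psmd7 and Psmg3 in none.

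The small differences leaned downwards. Of the members 33 were below zero and 13 above it (71.7% below, against 52.0% of all genes), with a median of -0.07 over the members and -0.01 over all genes. The groups did not overlap in 22 members (47.8%), 7 higher and 15 lower in PIK3CA shRNA cells, while over all genes they did not overlap in 33.1%. That background includes dim genes, whose arrays spread more, and the share over bright genes alone was not counted. Centred on each gene's mean over the 6 arrays, the median member stood at -0.002, -0.057 and -0.033 in the PIK3CA shRNA arrays and at 0.034, 0.040 and 0.015 in the control shRNA arrays. Every PIK3CA shRNA array was thus below every control shRNA array.

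**Figure D1:**
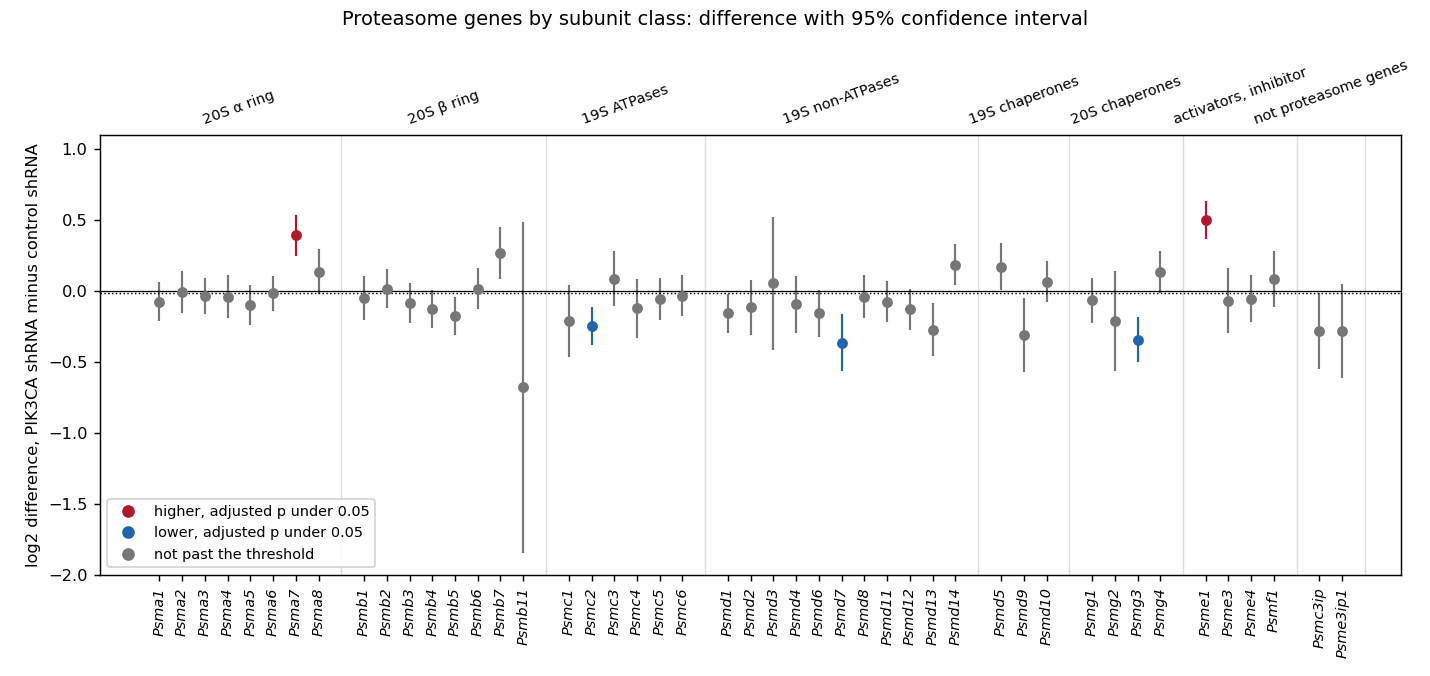
Log2 difference (PIK3CA shRNA minus control shRNA, vertical axis) of each member gene with its 95% confidence interval from limma, grouped by role; the dotted line is the median of all genes. Psme1 and Psma7 (red) rose, Psmc2, Psmd7 and Psmg3 (blue) fell, and the other 41 genes (grey) did not pass the threshold; the long bar is Psmb11, a dim gene.

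Among the activators, Psme1 rose. It encodes PA28-alpha, a subunit of the interferon-inducible ring that opens the core and favours peptide release. Psme1 read 2656, 2623 and 2612 in the PIK3CA shRNA arrays and 1919, 1816 and 1825 in the control shRNA arrays. The PIK3CA shRNA arrays were all high, with no overlap, at 142% of the control mean. The log2 difference, the highest among the members, was 0.50 (standard error 0.05, limma adjusted p = 0.00587). It was the only member past an adjusted p of 0.01, and its call held in all alternatives but the replicate block, where the adjusted p was 0.0627. The other regulators did not pass: Psme3, the nuclear PA28-gamma, read -0.07, Psme4, the PA200 cap, -0.05, and Psmf1, the inhibitor PI31, 0.09. A second, nearly as bright Psme3 probe set averaged 637 in PIK3CA shRNA and 804 in control shRNA cells. Its groups did not overlap, but it did not pass (-0.33, limma adjusted p = 0.156 over all probe sets). The immunoproteasome genes that the rule left out were dim except Psmb10. Psmb9 read 59.4, 77.1 and 70.3 in PIK3CA shRNA arrays and 14.6, 46.4 and 24.5 in control shRNA arrays (log2 difference 0.99, adjusted p = 0.0773). Psmb8 (0.31) and Psmb10 (0.13) did not pass either, so 0 of 3 passed in limma, with 1 at an unadjusted p under 0.05. Psmb10 lies on chromosome 8, and with that chromosome's median removed, a step described further on, it read 0.38 (adjusted p = 0.0392).

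In the alpha ring, Psma7 rose, and 7 of the 8 genes did not pass. Psma7 encodes the alpha subunit PSMA7, also called alpha-4. Its brightest probe set read 5836, 5656 and 5765 in the PIK3CA shRNA arrays and 4405, 4525 and 4187 in the control shRNA arrays, and the groups were well apart. The log2 difference was 0.40 (standard error 0.06, limma adjusted p = 0.0141). A second probe set read 4195, 3980 and 4091 in PIK3CA shRNA and 3070, 3002 and 2727 in control shRNA arrays (log2 difference 0.48, adjusted p = 0.0301 over all probe sets). Where leaving out an array ended the call, the adjusted p of the brightest probe set was 0.0588 without PIK3CA shRNA replicate 1, 0.0591 without PIK3CA shRNA replicate 3 and 0.0528 without control shRNA replicate 1. Psma1 to Psma6 lay between -0.09 (Psma5) and -0.01 (Psma2). Psma8, the alpha subunit of germ cells, was listed near the floor of the scale, at 6.35 to 8.40 in PIK3CA shRNA and 4.65 to 6.01 in control shRNA arrays.

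The promoter stretches of both rising genes are shown to be set against those of genes that fell, printed further on. The sequences are from RefSeq (GRCm38.p6), 250 bases before the listed start, 5′ to 3′ along the gene; capitals mark any match to the 8 motifs described with the promoter counts. Psme1 lies at chr14:55578244-55578493 (plus strand) and Psma7 at chr2:180042465-180042714 (minus strand).
Psme1: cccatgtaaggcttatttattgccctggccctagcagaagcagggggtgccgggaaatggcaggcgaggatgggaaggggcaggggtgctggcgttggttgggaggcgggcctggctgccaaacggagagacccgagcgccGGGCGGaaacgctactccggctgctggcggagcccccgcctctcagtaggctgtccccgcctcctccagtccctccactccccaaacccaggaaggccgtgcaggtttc
Psma7: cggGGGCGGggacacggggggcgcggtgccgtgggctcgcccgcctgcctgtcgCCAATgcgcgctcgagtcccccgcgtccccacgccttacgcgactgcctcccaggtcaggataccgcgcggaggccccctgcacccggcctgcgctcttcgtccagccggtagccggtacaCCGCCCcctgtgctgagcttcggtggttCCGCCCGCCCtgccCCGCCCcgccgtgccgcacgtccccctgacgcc

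Of the beta ring, 0 of 8 genes passed the limma threshold, with 2 at an unadjusted p under 0.05 (Psmb5 and Psmb7). The catalytic genes went different ways. Psmb5, the chymotrypsin-like subunit, read 3606, 3616 and 3604 in PIK3CA shRNA arrays and 3947, 4185 and 4106 in control shRNA arrays (log2 difference -0.18, adjusted p = 0.109). Psmb6, the caspase-like subunit, read 3092, 2855 and 2973 in PIK3CA shRNA and 2935, 2902 and 2975 in control shRNA arrays, and the groups overlapped (0.02, 95% interval -0.13 to 0.16). Psmb7, the trypsin-like subunit, read 4495, 4418 and 4449 in PIK3CA shRNA and 3911, 3383 and 3819 in control shRNA arrays (0.27, adjusted p = 0.0828). Psmb5 was low and Psmb7 high in every PIK3CA shRNA array, and neither passed. Both passed when dim genes were left out (adjusted p = 0.0376 for Psmb5 and 0.0299 for Psmb7) and with an intensity trend and robust prior (0.00964 and 0.0131). The structural beta genes Psmb1 (-0.05), Psmb2 (0.02), Psmb3 (-0.08) and Psmb4 (-0.13) did not pass. Psmb11, the thymus-specific beta subunit, was dim, with 31.7, 15.6 and 13.9 in PIK3CA shRNA and 17.7, 33.3 and 95.5 in control shRNA arrays, and the groups overlapped (-0.68, adjusted p = 0.439), with the highest value on 1 control array.

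**Figure D2:**
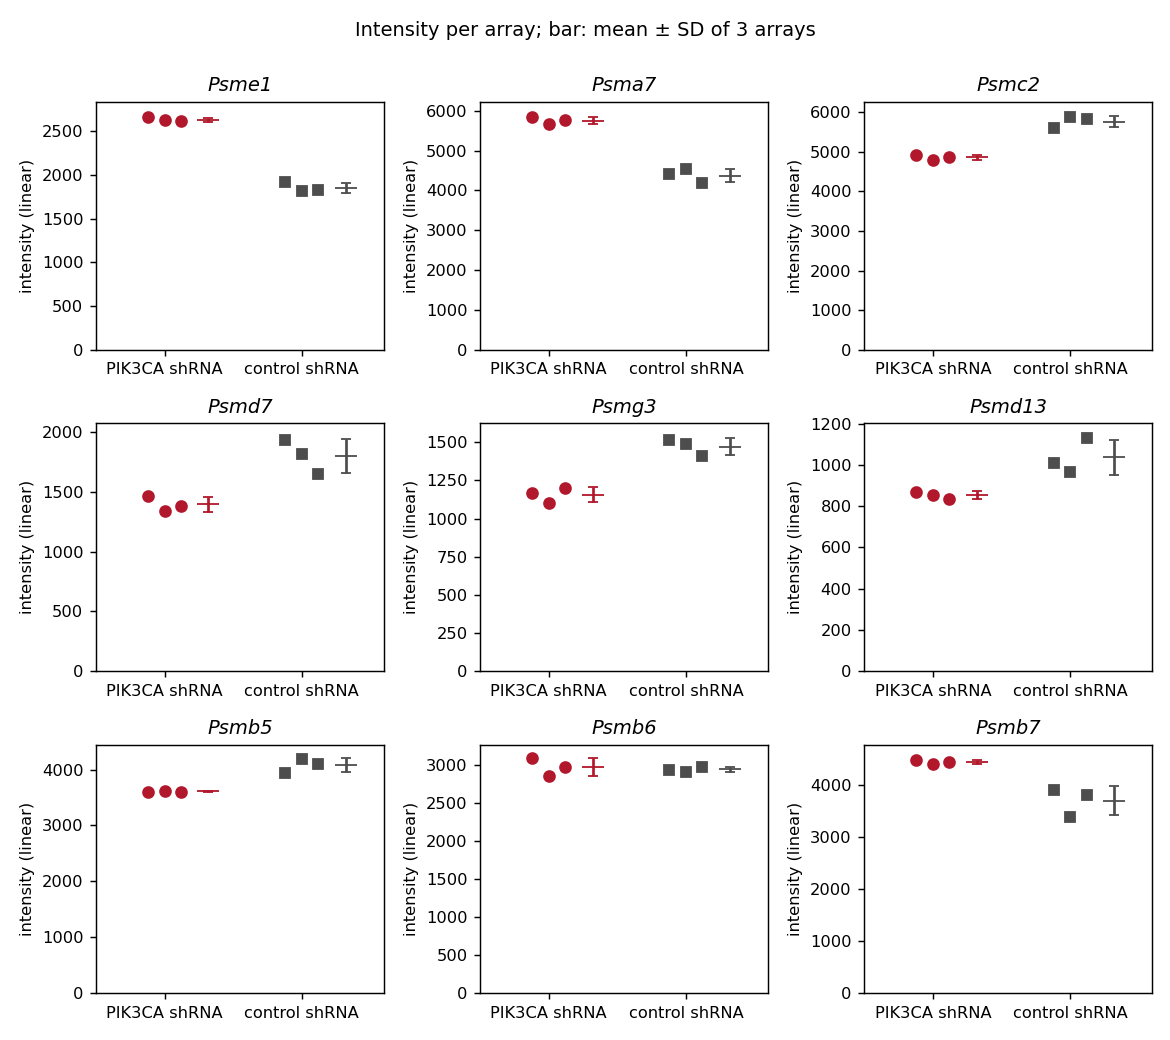
Linear intensity on each array (points, vertical axes from 0) with the mean and SD of 3 arrays (bars), PIK3CA shRNA left of control shRNA. The genes are the 5 members past the threshold, Psmd13 and the 3 catalytic subunits. Psme1 and Psma7 are higher and Psmc2, Psmd7 and Psmg3 lower with no overlap, while the Psmb6 arrays overlap.

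In the ATPase ring of the cap, 1 of 6 genes passed. Psmc2, the ATPase subunit RPT1, fell. It read 4920, 4786 and 4864 in the PIK3CA shRNA arrays and 5593, 5867 and 5809 in the control shRNA arrays. The groups did not overlap, and the log2 difference was -0.24 (standard error 0.05, limma adjusted p = 0.0452). The probe set is of a kind whose probes may also bind related transcripts. A second bright Psmc2 probe set read 3113, 4069 and 3769 in PIK3CA shRNA arrays, against 4636, 4175 and 4782 in control shRNA arrays (-0.32, adjusted p = 0.235 over all probe sets). Psmc1 (-0.21), Psmc4 (-0.12), Psmc5 (-0.06), Psmc6 (-0.03) and Psmc3 (0.09), the remaining ATPases, did not pass.

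Of the 11 non-ATPase subunits of the cap, 1 fell and 9 were below zero, with a class median of -0.11. Psmd7, the inactive partner of the deubiquitinase PSMD14, fell. Its values were 1466, 1340 and 1377 in PIK3CA shRNA arrays and 1933, 1815 and 1651 in control shRNA arrays, with no overlap (log2 difference -0.36, standard error 0.08, limma adjusted p = 0.0465). Psmd14 itself read higher, with 5582, 5696 and 5406 in PIK3CA shRNA and 4763, 5076 and 4824 in control shRNA arrays (0.19, adjusted p = 0.113). Psmd13, a lid subunit, was next by p within this class, at 871, 856 and 835 in PIK3CA shRNA and 1011, 968 and 1129 in control shRNA arrays (-0.27, adjusted p = 0.0841). All 4 Psmd13 probe sets were lower, between -0.22 and -0.42. The scaffold genes Psmd1 (-0.16) and Psmd2 (-0.11), the ubiquitin receptor gene Psmd4 (-0.09), and Psmd6 (-0.16), Psmd8 (-0.04), Psmd11 (-0.07), Psmd12 (-0.13) and Psmd3 (0.05) did not pass.

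The assembly chaperones were mixed. Psmg3, whose product PAC3 helps to seat alpha subunits while the core is built, fell. It read 1169, 1101 and 1198 in PIK3CA shRNA arrays and 1514, 1486 and 1411 in control shRNA arrays. Every PIK3CA shRNA array was below every control shRNA array, with a log2 difference of -0.34 (standard error 0.06, limma adjusted p = 0.0277). Psmg4, which encodes its binding partner PAC4, read 628, 625 and 642 in PIK3CA shRNA and 552, 602 and 565 in control shRNA arrays (0.14, adjusted p = 0.226). The other core chaperone pair, Psmg1 (-0.07) and Psmg2 (-0.21), did not pass. Of the cap chaperones, Psmd9 stood at -0.31 (adjusted p = 0.134), Psmd5 at 0.17 and Psmd10, the gankyrin gene, at 0.07. The 2 members that are not proteasome genes, Psmc3ip and Psme3ip1, both read -0.28 and did not pass.

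The promoters of Psmg3 and Psmc2 are shown as those of falling genes, and the catalytic genes Psmb5 and Psmb6 as those that hold the antioxidant response core through which NFE2L1 is known to act. No promoter was listed for the falling gene Psmd7 or the catalytic gene Psmb7, so neither was searched. Source, length and capitals are as above. Psmg3 lies at chr5:139826895-139827144 (minus strand), Psmc2 at chr5:21785025-21785274 (plus strand, the upstream of its 2 listed starts), Psmb5 at chr14:54617996-54618245 (minus strand) and Psmb6 at chr11:70525107-70525356 (plus strand).
Psmg3: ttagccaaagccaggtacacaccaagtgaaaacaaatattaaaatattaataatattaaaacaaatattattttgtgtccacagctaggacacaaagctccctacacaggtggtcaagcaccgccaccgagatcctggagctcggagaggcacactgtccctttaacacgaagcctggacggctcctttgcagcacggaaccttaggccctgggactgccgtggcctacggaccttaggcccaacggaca
Psmc2: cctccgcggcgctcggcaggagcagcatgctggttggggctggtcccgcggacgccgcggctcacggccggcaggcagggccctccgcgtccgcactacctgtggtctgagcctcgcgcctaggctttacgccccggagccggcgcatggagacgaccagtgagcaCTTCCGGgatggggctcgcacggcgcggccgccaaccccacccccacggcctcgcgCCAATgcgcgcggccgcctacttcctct
Psmb5: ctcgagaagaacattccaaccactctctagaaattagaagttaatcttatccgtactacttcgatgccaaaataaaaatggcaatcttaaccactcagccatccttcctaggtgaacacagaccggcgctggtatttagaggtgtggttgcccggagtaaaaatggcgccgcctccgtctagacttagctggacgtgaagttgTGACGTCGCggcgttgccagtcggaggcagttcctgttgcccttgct
Psmb6: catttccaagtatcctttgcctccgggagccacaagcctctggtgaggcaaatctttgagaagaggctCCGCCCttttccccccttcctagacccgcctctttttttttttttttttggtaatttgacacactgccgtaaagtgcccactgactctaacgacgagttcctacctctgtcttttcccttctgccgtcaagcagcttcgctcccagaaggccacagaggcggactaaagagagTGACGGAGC

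RefSeq promoters were matched for 38 of the 46 members, 41 in all. Psmd7 and Psmb7 were among the members without a match. The motifs were searched on both strands of the 250 bases before each start and, where they overlapped, each was counted. The antioxidant response core TGACNNNGC was in 12.2% of member promoters and 10.2% of all 32851 promoters. Its 5 member genes were Psmb5, Psmb6, Psmc6, Psmd12 and Psmd9, none of which passed the threshold. The ETS core CCGGAAG was in 34.1% of member promoters (6.91% of all), the GC box GGGCGG in 51.2% (32.7%), the CCAAT box CCAAT in 36.6% (33.8%) and the E-box CACGTG in 9.76% (6.02%). The core of the interferon-stimulated response element was in 7.32% of member promoters (2.98% of all) and not in the Psme1 window. The cyclic AMP response element TGACGTCA and the YY1 core GCCATNTTG were in 0 member promoters (1.55% and 1.33% of all). Psme1 and Psma7 held GC boxes, and Psma7 also a CCAAT box. Psmc2 held a CCAAT box and an ETS core, and the Psmg3 window held none of the 8. These are matches of letters, not sites of binding.

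On some chromosomes the members lay on the side of zero where most other genes of that chromosome lay (gene positions from RefSeq GRCm38.p6). All 6 members on chromosome 2 were above zero: Psma7 (0.40), Psmb7 (0.27), Psmd14 (0.19), Psmd5 (0.17), Psmc3 (0.09) and Psmf1 (0.09), with a median of 0.18. The 732 other genes of chromosome 2 above the median brightness had a median of 0.20, and 80.2% of them were above zero. All 3 members on chromosome 5 were below zero, Psmg3 (-0.34), Psmd9 (-0.31) and Psmc2 (-0.24), where 621 other bright genes had a median of -0.15. On chromosome 8, Psmd7 (-0.36) and Psme3ip1 (-0.28) stood beside a median of -0.25 over 510 other bright genes. Of the 5 called members, 4 lay on these 3 chromosomes, which were singled out after their values were seen; chromosome 6, also high (median 0.18 over its bright genes), holds no member. Chromosomes 2, 5 and 8 hold 11 members, and 18.7% of their tested genes passed the limma threshold, against 9.89% of genes on the other chromosomes. Among the 35 members elsewhere, 1 passed, Psme1 on chromosome 14, where the other bright genes had a median of -0.02.

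With the median of each chromosome's other bright genes taken out of every array, 1 member passed, Psme1 at 0.52 (limma adjusted p = 0.00625). That is 2.17% of the members, against 8.61% of all genes in the same fit. Psma7 then read 0.20 (adjusted p = 0.114), Psmg3 -0.19 (0.160), Psmc2 -0.09 (0.375) and Psmd7 -0.11 (0.505). Psmb7 came to 0.07 and Psmd14 to -0.01, both near zero. After this step 36 of 46 members were below zero, with a median of -0.08. Outside chromosomes 2, 5 and 8, without any such step, 28 of 35 members were below zero, with a median of -0.07 against -0.002 for other bright genes (50.4% below zero). The 10 nearest tested genes of Psmd7 (5 on each side) had a median of -0.29 with 9 below zero, and those of Psma7 a median of 0.29 with 9 above zero. The median was -0.22 around Psmg3, 0.02 around Psmc2 and 0.09 around Psme1. Whether the chromosome plays a part in the members' differences was not tested beyond these values.

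**Figure D3:**
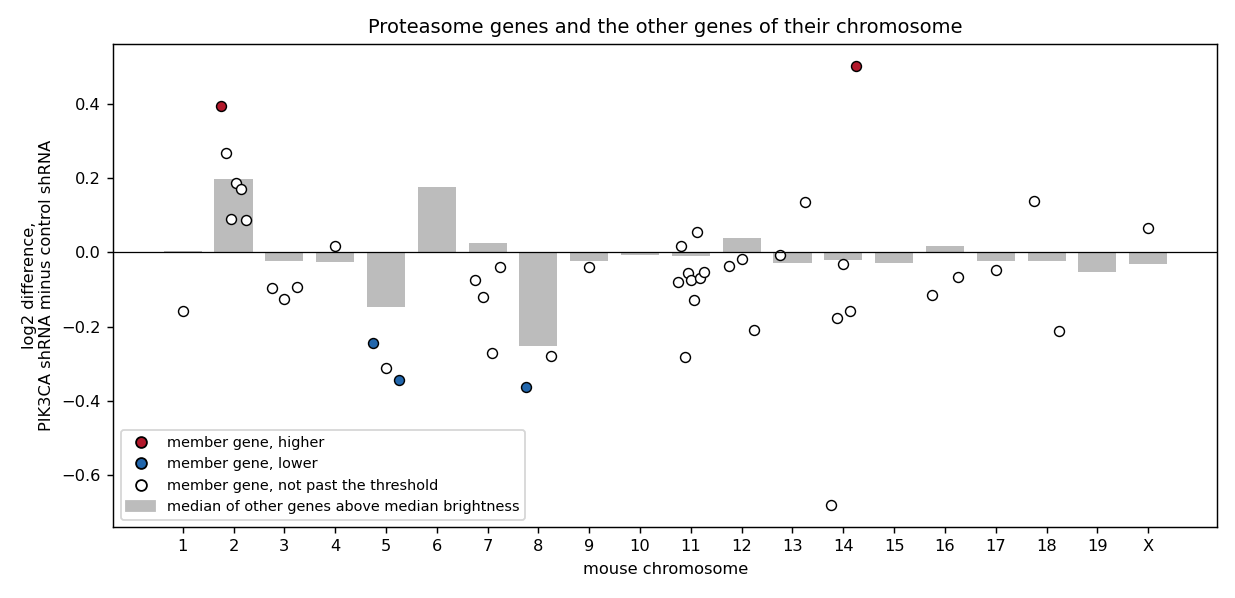
Log2 difference (PIK3CA shRNA minus control shRNA) of each member gene (points) by mouse chromosome, over the median of the other genes above the median brightness on that chromosome (grey bars from 0). The 6 members on chromosome 2 are above zero and the 5 on chromosomes 5 and 8 below it, like the grey bars there, while Psme1 on chromosome 14 (red) stands far from its bar.

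Different probe sets of a gene did not always read alike. In the fit over all 45037 probe sets, 3 of the 99 member probe sets passed (3.03%, against 4.94% of all), the Psme1 probe set and both of Psma7. Of the 99, 71 were below zero and 28 above. Among 22 genes with more than 1 member probe set above the median brightness of all probe sets, 15 had all of them on the same side of zero and 7 did not. Psmf1 had the widest such split. Of its 4 probe sets, the brightest read 0.09, another 0.20, and a dimmer one fell short of the threshold at -0.70 (adjusted p = 0.0506). That probe set read 221, 193 and 255 in PIK3CA shRNA arrays and 412, 379 and 323 in control shRNA arrays, so its groups were apart. For Psmc6 the brightest probe set read -0.03, while the others read -0.26 and -0.37 with no overlap of the groups and adjusted p of 0.0911 and 0.114. The second Psmd6 probe set (1577, 1524 and 1556 in PIK3CA shRNA and 1891, 2000 and 1946 in control shRNA arrays) read -0.32, farther from zero than the brightest at -0.16, and did not pass (adjusted p = 0.0565). Psmd11, with 8 probe sets, ranged from -0.25 to 0.39. The value of 0.39 came from a dim probe set with overlapping groups, averaging 33.5 in PIK3CA shRNA and 21.1 in control shRNA cells. The Psmd11 probe sets above the median brightness ranged from -0.25 to 0.16.

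**Figure D4:**
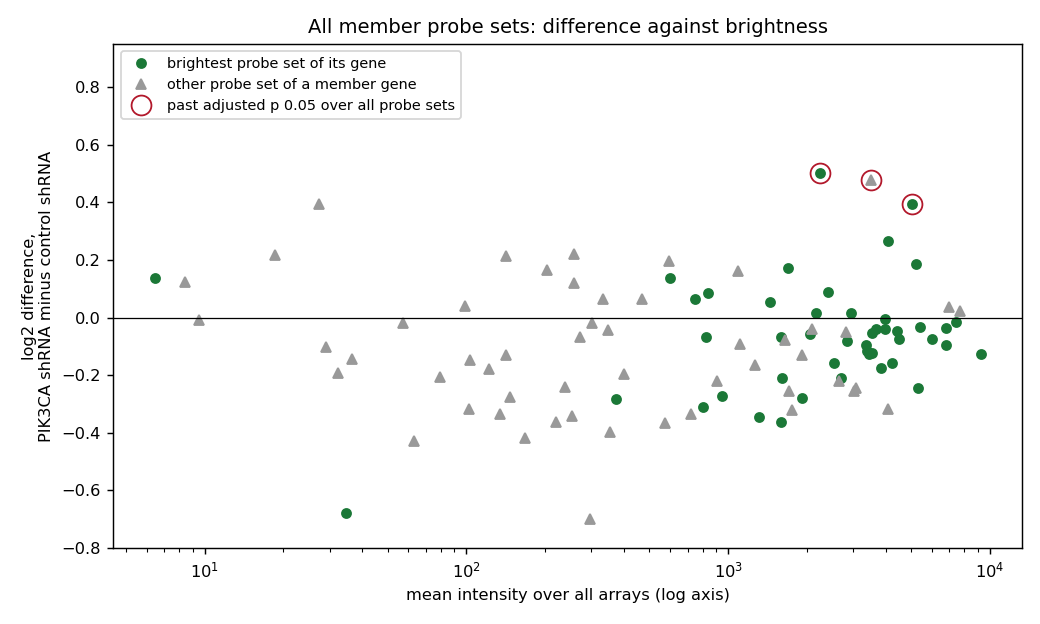
Log2 difference (PIK3CA shRNA minus control shRNA, vertical axis) of all 99 member probe sets against their mean intensity over the 6 arrays (horizontal log axis). The 3 circled probe sets, of Psme1 and Psma7, are past the threshold over all probe sets; the lowest grey point is the dimmest of the Psmf1 probe sets, at -0.70.

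Genes that work with the proteasome but carry other names were counted from 5 lists, with 10 of 51 measured genes past the limma threshold (3 higher, 7 lower), 19.6% against 11.5% of all genes and 17.6% of genes above the median brightness, where most of the listed genes lie. The share is thus near that of all genes above the median brightness. A share over genes matched for brightness was not counted. Of 11 partners, 2 fell. Pomp, the chaperone that matures the core, averaged 2928 ± 52.0 in PIK3CA shRNA and 3774 ± 97.4 in control shRNA cells (SD, n = 3 each), a log2 difference of -0.36 (limma adjusted p = 0.0149). Zfand2a, an arsenite-inducible proteasome-associated gene, was lower by the same fit (-0.51, adjusted p = 0.0272). Sem1, a small cap subunit, read 0.15 and the ubiquitin ligase gene Ube3c -0.19, and neither passed. Pomp and Zfand2a both lie on chromosome 5, and with chromosome medians removed they read -0.21 (adjusted p = 0.0860) and -0.36 (0.0909).

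Among 10 genes of proteasome transcription, 3 rose and 2 fell. The repressor gene Bach1 rose by 0.54 (limma adjusted p = 0.00747), Ngly1, the deglycosylase that activates NFE2L1, by 0.35 (0.0258) and Nfe2l2 by 0.28 (0.0300). Nfyc, a subunit of the CCAAT-binding factor NF-Y, fell by 0.42 (0.0166) and Mafk, a partner of NFE2L1, by 0.31 (0.0360). Nfe2l1 itself read 1424, 1420 and 1431 in PIK3CA shRNA arrays and 1950, 1928 and 1615 in control shRNA arrays. Its groups did not overlap, but the difference of -0.35 did not pass (adjusted p = 0.0641). Nfe2l2 (chromosome 2) and Mafk (chromosome 5) did not pass with chromosome medians removed (0.08, adjusted p = 0.422, and -0.15, 0.231), whereas Bach1, Ngly1 and Nfyc did. Mafk and Nfe2l1 were singled out after their values were seen. Of 17 genes of ubiquitin supply and shuttling, 0 passed in limma, with 3 at an unadjusted p under 0.05, and Ubqln2 was nearest (-0.23, adjusted p = 0.0518), followed by Ubqln1 (-0.20), Sqstm1 (-0.14) and Ufd1 (-0.15). Of 10 cytosolic chaperone genes, 3 fell: Hsph1 (-0.64, adjusted p = 0.00365), Dnajb1 (-0.43, 0.00864) and Hspa1a (-0.31, 0.0350). Dnajb1, on chromosome 8, read -0.18 (adjusted p = 0.114) with chromosome medians removed, and Hsph1, on chromosome 5, -0.49 (0.00968). Hspa1a, on chromosome 17, was below the median brightness and read -0.29 (0.0532) after that step. Hspa1b, a brighter gene of that list, averaged 1756 in PIK3CA shRNA and 1626 in control shRNA cells and did not pass (0.11, adjusted p = 0.373). Hspa8 did not pass either (-0.15, adjusted p = 0.212). Of the 10 chaperone genes, 5 were above zero and 5 below it.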

How the data were processed

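RNA from 344SQ cells was biotin-labelled and read on Affymetrix mouse arrays, 1 for each sample, following the maker's protocol per the labels. The deposited values are linear intensities per probe set with a nearly common distribution over the 6 arrays. Whether and how they were normalized, and the array software, are not given in the sources used here. The deposited table holds no detection calls or depths.

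Each array was scaled so that all 6 had an equal median, 16 was added, and log2 was taken. Gene symbols came from the platform annotation of the probe sets: 34945 had 1 symbol, 932 several and 9160 none. The 64 Affymetrix controls were left out. Of a gene's probe sets with 1 symbol, the one with the highest mean log2 value stood for it. Two-sided tests between the groups used lmFit and eBayes of limma 3.58.1, run in R 4.3.3, with Benjamini-Hochberg adjustment over all genes, or over all probe sets where stated, and a threshold of 0.05. The fit was tested on simulated data. Figures were drawn with matplotlib 3.10.9.

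Same-numbered arrays had deviation correlations of 0.048, -0.021 and -0.020 over all genes, and differently numbered arrays between -0.054 and 0.072. With 3 arrays a group, these values cannot tell whether same-numbered arrays shared a culture or a batch. The members and lists were chosen with earlier results of these data known. Values on every array are given for called members, the catalytic subunits, Pik3ca and the members next by p, to 8 in all. From each pathway list up to 4 genes with the smallest adjusted p are named. Mafk, Nfe2l1 and Hspa1b were added after their values were seen. Other genes with values on every array were picked after their values were seen. The alternatives tried were the replicate block, pseudocount, scaling, a filter on dim genes, the probe set per gene, the variance model, the chromosome, the threshold and leaving out each array.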

Additional observations from a re-analysis of the deposited data

How the results depend on the processing

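None of the single-gene results recomputed changed its direction from a called value, and Pik3ca kept its call in all 17 alternatives. Some class medians did change sign, as given below. The count of 5 called members moved to 3 (6.52%) with a pseudocount of 1, where 10.2% of all genes passed. It was 9 with dim genes left out (20.5% of 44, against 27.3% of all genes kept). It was 3 (6.52%) with the mean of probe sets (8.3% of all genes) and with each gene's probe set of largest interquartile range (8.54%). An intensity trend and robust prior gave 11 (23.9%, against 17.5% of all genes). Chromosome medians removed gave 1 (2.17%, against 8.61%), and an adjusted p of 0.01 also 1 (2.17%, against 3.5%). It was 1 to 2 (2.17% to 4.35%) when an array was left out, against 5.19% to 6.26% of all genes. The count of 3 called member probe sets moved to 10 with a pseudocount of 64 (10.1%, against 8.06% of all probe sets). It was 18 with the trend and robust prior (18.2%, against 10.4%). In each of the 6 fits that left out an array it was 0, where 1.62% to 2.25% of all probe sets passed. The 10 called pathway genes became 6 with chromosome medians removed and 3 to 5 without an array. With the replicate number as a block, 0 members, 0 member probe sets and 1 pathway gene passed, and 413 of all genes (2.27%). Whether same-numbered arrays share a culture or a batch could not be settled from their near-zero deviation correlations.

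In the main fit the median was 0.066 for the 19S chaperones and -0.14 for the 20S chaperones. It was -0.064 for the beta ring and 0.017 for the activators and inhibitor. When each gene was read from its probe set with the largest interquartile range, the median was -0.0921 over all members and 0.12 for the 19S chaperones. It was then -0.0443 for the 19S non-ATPase subunits, -0.10 for the beta ring and -0.24 for the activators and inhibitor. With the mean of probe sets it was -0.0663 for the 19S non-ATPase subunits and -0.11 for the activators and inhibitor, and with chromosome medians removed it was -0.0244 for the 19S chaperones. The median of the activators and inhibitor thus changed sign with both of these ways of reading a gene. It was also below zero with chromosome medians removed (-0.0533) and without PIK3CA shRNA replicate 2 (-0.00756). The 19S chaperone median changed sign with chromosome medians removed. Without an array, the 20S chaperone median ran from -0.225 to -0.0654. The cause of these shifts was not tested. With 3 arrays a group, small differences of members whose groups overlapped could not be told from the spread between arrays. The groups did not overlap in 22 members, but apart from the called members these did not pass the threshold. Psma8 and Psmb11 were also dim, close to the pseudocount.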
